A study of Mus musculus with 2 samples.

Results

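Lung epithelial cells carry ligands that act on immune cells, and 6 genes for such ligands were read here: Il33, Lgals9, Lgals3, Cd200, Cd47 and Cd274. They were chosen by name, as the rows with these symbols in both libraries, and make up 6 of 28692 genes. The data are droplet single-cell RNA counts from 2 libraries of sorted mouse lung cells, 1 per group, and the comparison asks how lung epithelium differs when a tumor grows elsewhere in the body. Both groups were wild type C57BL/6 mice. The tumor-bearing group had 1000000 luciferase-labeled LLC cells (Lewis lung carcinoma, a mouse lung cancer line) placed subcutaneously on the back, and the lungs were collected 14 days later. Its library is called the tumor library here. The labels describe this as a model of spontaneous spread to the lung. The control group had received no tumor. In both groups the sort kept CD45- SftpC+ cells, at a purity given as above 95%. The labels give no age and do not say how many animals went into a library.

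The 6 proteins work by different routes. IL-33 is an alarmin, a nuclear cytokine of the IL-1 family that is freed from damaged cells and acts through ST2 (Il1rl1) on innate lymphoid cells, mast cells and regulatory T cells, and alveolar type 2 (AT2) cells are a known source of it in the mouse lung. Galectin-9 and galectin-3 are sugar-binding proteins, and their partners include the T cell receptors TIM-3 (Havcr2) for galectin-9 and LAG-3 for galectin-3. CD200, CD47 and PD-L1 (Cd274) sit on the cell surface and restrain myeloid cells through CD200R1, phagocytes through SIRPα and T cells through PD-1, respectively.

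AT2 cells, which make surfactant, were taken as barcodes with at least 2000 UMIs (unique molecular identifiers, each standing for 1 captured transcript) of which Sftpc made at least 15%. This gave 6729 cells in the tumor library and 10008 in the control library, with medians of 8976 and 6939 UMIs and with Sftpc at 26.7% and 26.4% of UMIs. All 12 AT2 markers on the list used here reached 20 CPM (counts scaled to a total of 1000000) in both. Few cells lay at the Sftpc limit: 55 and 70 cells had 15 to 16%, and 35 and 43 barcodes had 14 to 15%. The other classes came from clusters named by marker genes and are called by the suffix "-like". They held, in the tumor-bearing and control library, 177 and 323 alveolar type 1 (AT1)-like cells, 248 and 67 club-like cells, 215 and 283 ciliated-like cells, 20 and 42 basal-like cells, and 480 and 54 endothelial-like cells. Each class had all its listed markers at 20 CPM or more, except that the basal-like cells of the tumor library had 8 of 9. The clusters were named by these same lists, so this describes the classes and is no check of their names. Endothelial cells lie outside the labelled sort, and in each of these classes Sftpc made at most 2.05% of UMIs at the median. Cell numbers are therefore not compared between libraries for any of them. The libraries held 84448360 and 91498124 UMIs in all.

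A level is the summed UMI count of a gene over the cells of a class, in CPM. It is a share of the UMIs of that class, so very abundant transcripts of a class lower the levels of its other genes. With 1 library per group no difference had a replicate check, no test across mice was possible, and a difference between mice cannot be told apart from one between libraries. Intervals are exact 95% intervals for counting error alone. A fold is the tumor-bearing over the control level. A gene was called higher or lower at a fold of at least 1.2 with an interval that left out 1, among genes of at least 20 CPM in either library. Free RNA was read in empty droplets, the barcodes with 1 to 100 UMIs, which held 5359717 UMIs in the tumor library and 2321211 in the control library. Sftpc made 18.8% and 23.3% of their UMIs, so the free RNA of both libraries carried much AT2 transcript.

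**Figure D1:**
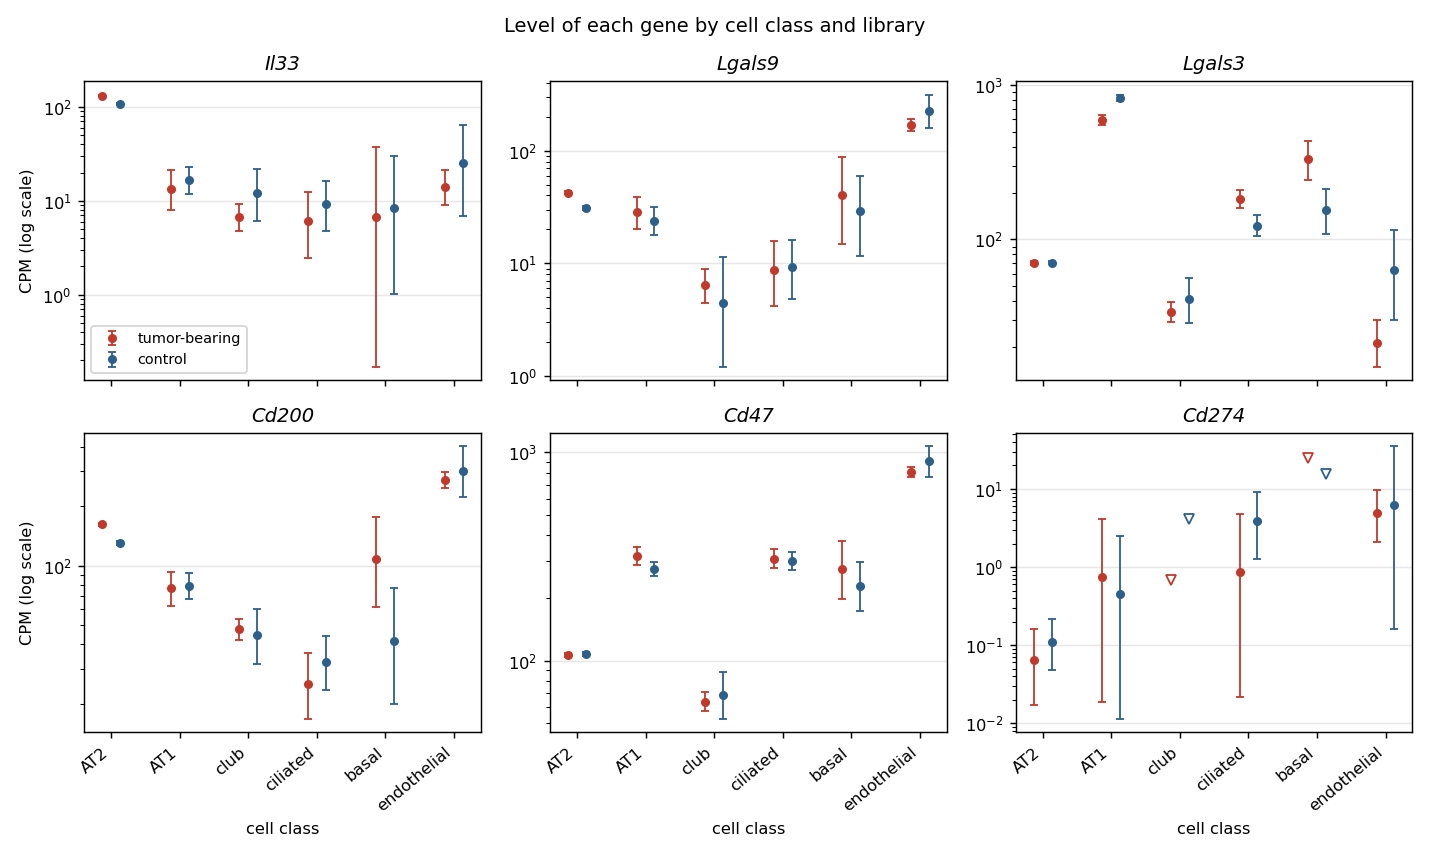
Level of each of the 6 genes (CPM, log axis, a scale of its own per panel) in 6 cell classes of the tumor-bearing (red) and control (blue) library, with points for the level, bars for the exact 95% counting interval and open triangles for the upper limit where no UMI was found. Il33 stands highest in AT2 cells, Lgals3 in AT1-like cells, and Lgals9, Cd200 and Cd47 in endothelial-like cells.

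In AT2 cells, Il33, Lgals9 and Cd200 were higher in the tumor library, while Lgals3 and Cd47 stood at nearly the same level in both and Cd274 was almost undetected. Thus 3 of the 5 members that reached 20 CPM were called higher and 0 lower, where 6.54% of 4036 genes were called higher and 7.23% lower. At a limit of 1.5-fold no member was called, against 1.36% of genes higher and 0.892% lower. The median log2 ratio of the 5 members was 0.31 and that of all 4036 genes was -0.043.

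**Figure D2:**
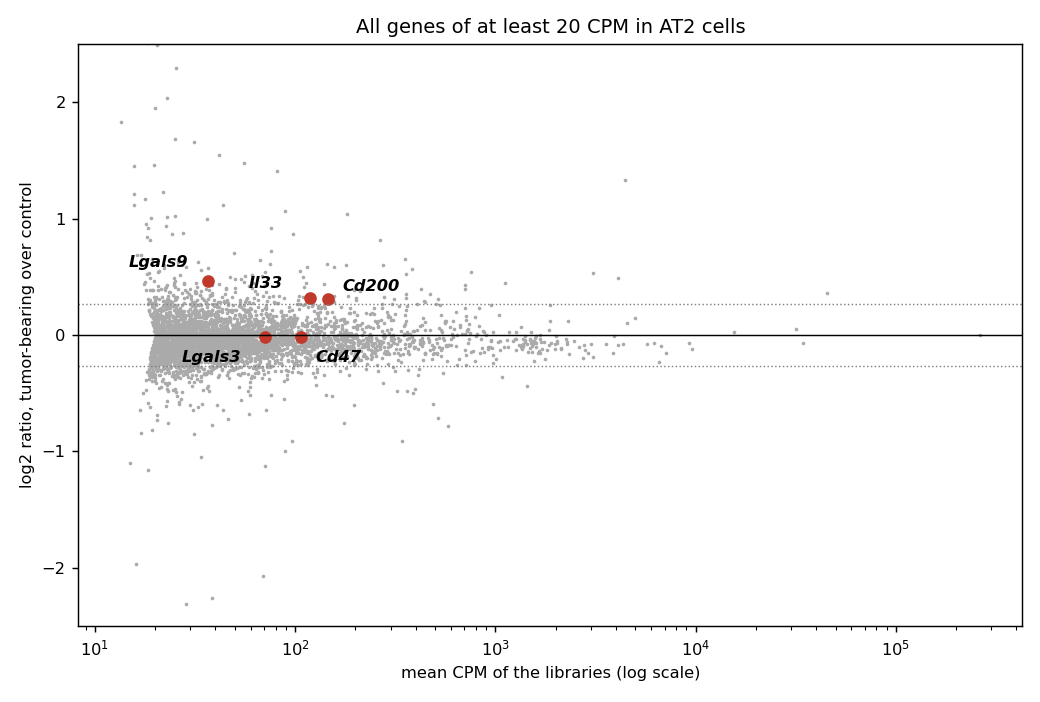
Log2 ratio of tumor-bearing over control against mean level (CPM, log axis) for the genes of at least 20 CPM in AT2 cells, with the 5 measured members in red, dotted lines at 1.2-fold and 4 genes beyond the vertical axis not drawn. Lgals9, Il33 and Cd200 lie above the upper dotted line and Lgals3 and Cd47 at 0.

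Il33, the alarmin, was read at 132 CPM (129 to 135) in AT2 cells of the tumor library and at 106 CPM (104 to 109) in those of the control library. The intervals did not overlap, and the fold was 1.24 (1.21 to 1.28). Of the 4036 genes, 4.53% had a ratio at least as high. Cell by cell, with every cell thinned to 2000 UMIs, 21.4% (20.4 to 22.4) of AT2 cells of the tumor library and 17.7% (16.9 to 18.4) of those of the control library had an Il33 UMI. Without thinning the shares were 57.6% and 43.9%, a wider gap that went with the deeper cells of the tumor library. The 10% of AT2 cells with the most Il33 UMIs held 40.9% of them in the tumor library and 45.9% in the control library. Such a share also rises as UMIs per cell fall, and its value for an even spread was not computed. 

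Empty droplets held Il33 at 113 CPM in the tumor library and 105 CPM in the control library. The AT2 level was therefore 1.17 and 1.01 times that of free RNA. Outside AT2 cells, Il33 lay between 6.07 and 14.1 CPM in the tumor library and between 8.34 and 25.2 CPM in the control library, and neighbouring classes had overlapping intervals. AT1-like cells had 13.4 and 16.7 CPM, which is 0.118 and 0.160 times the free level, while AT2 markers stood there at 18.9% and 18.4% of their own free level. In AT1-like, club-like, ciliated-like and basal-like cells Il33 thus stood at or below the background that AT2 markers measured, and it is not read as expression there. Endothelial-like cells had 0.125 and 0.240 times the free level, above the 7.64% and 10.4% of the AT2 markers, on 23 and 4 UMIs. After thinning, 0.465% (0.0118 to 2.56) of ciliated-like cells in the tumor library and 2.47% (1.00 to 5.03) in the control library had an Il33 UMI, at unthinned medians of 5107 and 4337 UMIs.

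Lgals9, which encodes galectin-9, had the largest ratio of the 5 measured members in AT2 cells. It stood at 42.5 CPM (40.9 to 44.2) in the tumor library and 30.9 CPM (29.6 to 32.2) in the control library. The fold was 1.38 (1.30 to 1.46), and 2.11% of genes had a ratio at least as high. Thinned AT2 cells had a UMI in 7.70% (7.07 to 8.36) and 6.04% (5.58 to 6.52). Empty droplets moved with it, at 43.3 CPM in the tumor library and 28.0 CPM in the control library. The AT2 level was 0.982 and 1.10 times that of free RNA. The part of free RNA in the Lgals9 difference was not tested beyond the alternatives given at the end.

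Endothelial-like cells had the highest Lgals9 level, 168 CPM (149 to 189) in the tumor library and 227 CPM (159 to 314) in the control library. Their fold was 0.741, with an interval of 0.523 to 1.08 that includes 1. In the tumor library the order went on with AT2 cells at 42.5 CPM, basal-like cells at 40.5 CPM (14.9 to 88.1) and AT1-like cells at 28.3 CPM (20.01 to 38.8), and neighbours in that order had overlapping intervals. The control library had the same order, with 29.2 CPM (11.7 to 60.1) in basal-like and 24.0 CPM (18.0 to 31.3) in AT1-like cells. Club-like cells had 6.41 and 4.44 CPM and ciliated-like cells 8.67 and 9.29 CPM, the lowest levels in both libraries. The AT1-like fold of 1.18 (0.757 to 1.82) was no call.

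Lgals3, which encodes galectin-3, was 70.1 CPM (68.1 to 72.2) in AT2 cells of the tumor library and 70.9 CPM (69.0 to 72.9) in those of the control library. The fold of 0.989 had an interval of 0.950 to 1.03. The value changed with the treatment of free RNA. With free RNA subtracted by club markers the log2 ratio was 0.60 in place of -0.016, and Lgals3 was called higher. That subtraction put free RNA at 12.7% of AT2 UMIs in the tumor library and 53.9% in the control library. It counts every club marker UMI in AT2 cells as free RNA, and is too high where AT2 cells make such a marker. In 1 cluster with 109 cells under the AT2 rule, the club markers Cckar and Hp were among the leading genes. With Scgb1a1 alone, added after seeing the data, the shares were 5.53% and 17.9%. The log2 ratio was then 0.068, short of 1.2-fold. Thinned shares were 11.3% (10.6 to 12.1) and 11.5% (10.9 to 12.2). Lgals3 was also the most concentrated of the 5 measured members in both libraries, with 57.2% of its UMIs in the 10% of AT2 cells that had the most in the tumor library and 59.5% in the control library. Its AT2 level was 0.826 and 0.762 times that of empty droplets, which held 84.9 and 93.1 CPM.

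AT1-like cells, the thin lining across which gas passes, had the highest Lgals3 level: 596 CPM (555 to 639) in the tumor library and 829 CPM (791 to 867) in the control library. The intervals were apart and the fold was 0.719 (0.661 to 0.782), called lower. It was the 1 member called of 4 measured in AT1-like cells, with 0 higher, where 11.3% of 5888 genes were called higher and 8.71% lower. Of those genes, 7.08% had a ratio at least as low. At 1.5-fold no member was called in AT1-like cells, against 7.39% of genes higher and 3.5% lower. Thinned AT1-like cells had an Lgals3 UMI in 68.4% (60.96 to 75.1) and 76.2% (71.1 to 80.7), with overlapping intervals.

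In ciliated-like cells Lgals3 went the other way, with 184 CPM (160 to 210) in the tumor library and 123 CPM (105 to 144) in the control library. The fold was 1.49 (1.21 to 1.85), the 1 call among 3 measured members there, with 0 lower, where 7.42% of 6242 genes were called higher and 5.48% lower. At 1.5-fold it was no longer called, against 3.97% of genes higher and 3.51% lower. The thinned shares of 19.1% (14.1 to 25.0) and 14.1% (10.3 to 18.8) overlapped. Most Lgals3 UMIs of this class lay in few cells, 59.9% of 212 UMIs in the 22 cells with the most in the tumor library and 67.3% of 159 UMIs in 29 cells in the control library.

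Basal-like cells, the progenitors of the airway, had Lgals3 at 330 CPM (245 to 437) in the tumor library and 154 CPM (109 to 213) in the control library, a fold of 2.14 (1.37 to 3.38). This rests on 49 and 37 UMIs, and 3 of the 20 cells of the tumor library held 39 of its 49. The thinned shares were 20% (5.73 to 43.7) and 23.8% (12.1 to 39.5), the reverse order of the levels. With Cd200 this made 2 of 4 measured members called higher and 0 lower in basal-like cells, where 4% of 6344 genes were called higher and 2.24% lower, and the same 2 passed 1.5-fold, as did 3.64% of genes upward and 1.88% downward.

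Endothelial-like cells had the lowest Lgals3 level in the tumor library, 21.5 CPM (14.95 to 29.9), next to 63.0 CPM (30.2 to 116) in the control library. The fold was 0.341 (0.165 to 0.772) on 35 and 10 UMIs, a log2 ratio of -1.55 that became -2.21 with clusters at resolution 0.5. It was the 1 call among 5 measured members, with 0 higher, where 3.99% of 6442 genes were called higher and 5.05% lower. At 1.5-fold it was called too, as were 4.1% of genes in that direction and 3.17% in the other. Both levels lay under those of empty droplets, at 0.253 and 0.677 times, and AT2 markers stood at 7.64% and 10.4% of theirs in these cells. Club-like cells had 33.9 CPM (29.2 to 39.1) and 41.1 CPM (28.9 to 56.6), with overlapping intervals. None of the 3 members measured in club-like cells was called, where 2.66% of 2485 genes were called higher and 20.1% lower and the median log2 ratio of all genes was -0.21. Club-like cells of the tumor library had 23171 UMIs at the median and those of the control library 12261.

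**Figure D3:**
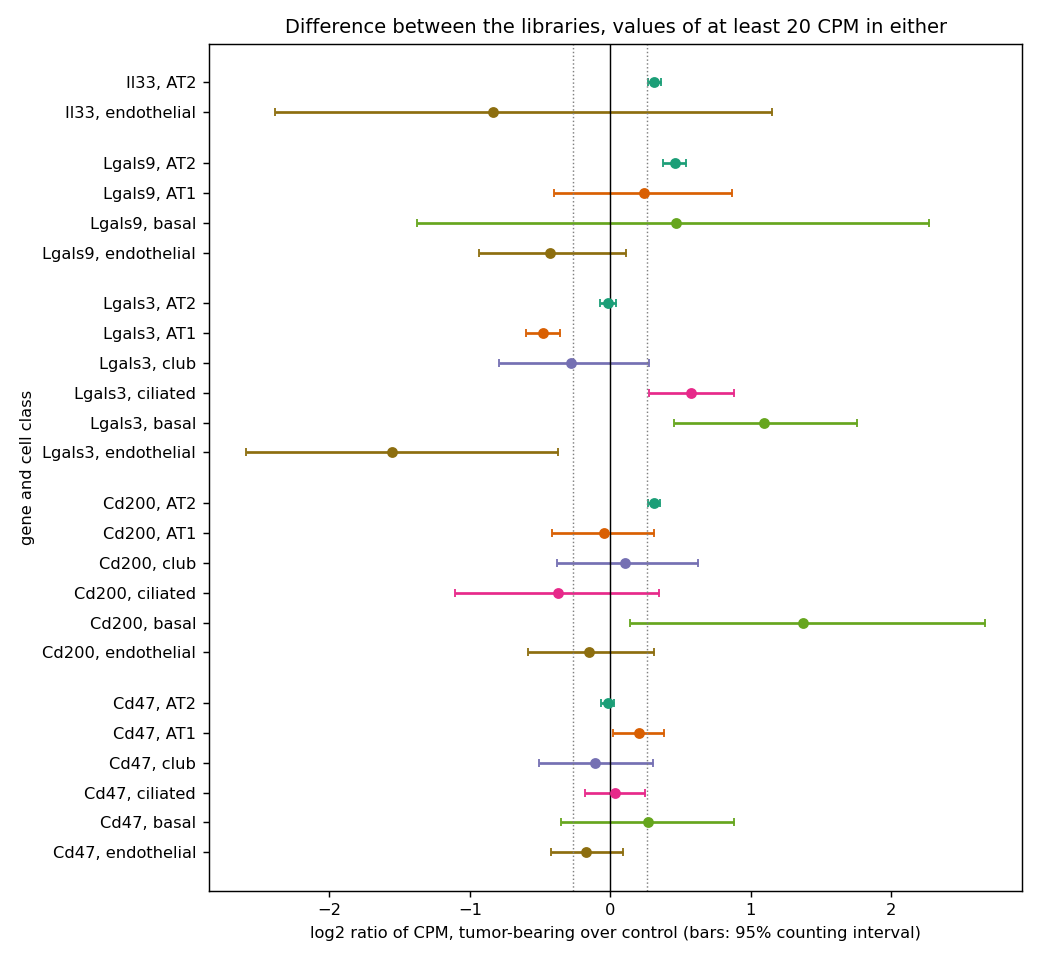
Log2 ratio of tumor-bearing over control for each gene and class of at least 20 CPM in either library, with 95% counting intervals as bars and dotted lines at 1.2-fold. Lgals3 has intervals on both sides of 0, below it in AT1-like and endothelial-like cells and above it in ciliated-like and basal-like cells, while Il33, Lgals9 and Cd200 in AT2 cells have the narrow bars of large counts.

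Cd200, the ligand of CD200R1, was read at 162 CPM (159 to 165) in AT2 cells of the tumor library and 130 CPM (128 to 133) in those of the control library. The fold was 1.24 (1.21 to 1.28), with 4.58% of genes at least as high. Thinned shares were 26.6% (25.6 to 27.7) and 22.7% (21.9 to 23.5). Cd200, the member with the most UMIs in AT2 cells, had 31.0% and 35.0% of them in the top 10% of AT2 cells. That was the lowest share of the members, with Cd47 next at 34.1% and 35.1%. Empty droplets held 139 and 132 CPM, which puts the AT2 level at 1.17 and 0.987 times that of free RNA.

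The highest Cd200 level was that of endothelial-like cells, 272 CPM (248 to 299) and 302 CPM (223 to 401), with a fold of 0.901 (0.668 to 1.24). AT1-like cells had 76.6 CPM (62.6 to 92.95) and 79.1 CPM (67.8 to 91.7), which is a fold of 0.969 (0.752 to 1.24). Below them came club-like cells with 47.8 and 44.4 CPM and ciliated-like cells with 25.1 CPM (16.8 to 36.1) and 32.5 CPM (23.4 to 44.0). In basal-like cells Cd200 was called higher, at 108 CPM (61.7 to 175) in the tumor library and 41.7 CPM (19.99 to 76.7) in the control library. That fold of 2.59 (1.10 to 6.38) rests on 16 and 10 UMIs, and both levels lay under the free level. The log2 ratio of 1.37 became 0.75 with cells over the Sftpc limit kept in the class, and 2.02 with free RNA subtracted by AT2 markers.

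The promoter sequences of the 3 members that were higher together in AT2 cells are shown so that the stretch next to each start site can be read. They are the 250 bases before the RefSeq start site on build GRCm38.p6, 5′ to 3′ on the gene's strand, and capitals mark a match to the interferon-stimulated response element (ISRE), searched on both strands as GAAA, any 2 bases and GAAA again. Lgals9 lies on chr11:78984925-78985174, minus strand. Il33 has 2 start sites, with stretches at chr19:29924863-29925112 and, inside the gene, chr19:29945540-29945789, both on the plus strand. Cd200 lies on chr16:45409054-45409303, minus strand.
Lgals9: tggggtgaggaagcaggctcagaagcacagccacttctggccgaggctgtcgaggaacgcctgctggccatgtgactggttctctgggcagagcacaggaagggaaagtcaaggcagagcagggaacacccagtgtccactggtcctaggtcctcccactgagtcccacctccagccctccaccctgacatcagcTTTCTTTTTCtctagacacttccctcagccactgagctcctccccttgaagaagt
Il33 start site 1: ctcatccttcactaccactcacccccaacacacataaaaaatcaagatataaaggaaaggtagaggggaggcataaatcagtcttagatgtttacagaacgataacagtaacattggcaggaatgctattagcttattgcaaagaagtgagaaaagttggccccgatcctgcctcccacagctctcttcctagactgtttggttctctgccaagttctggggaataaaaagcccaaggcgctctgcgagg
Il33 start site 2: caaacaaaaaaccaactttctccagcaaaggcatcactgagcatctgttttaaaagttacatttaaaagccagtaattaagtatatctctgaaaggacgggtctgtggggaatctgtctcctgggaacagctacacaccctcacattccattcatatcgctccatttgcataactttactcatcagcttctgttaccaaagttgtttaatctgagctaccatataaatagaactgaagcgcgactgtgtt
Cd200: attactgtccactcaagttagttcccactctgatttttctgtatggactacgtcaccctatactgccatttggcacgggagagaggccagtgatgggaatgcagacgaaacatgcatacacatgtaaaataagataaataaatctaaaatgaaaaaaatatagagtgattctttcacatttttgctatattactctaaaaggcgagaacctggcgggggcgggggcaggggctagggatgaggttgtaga

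Of the 6 members, all matched RefSeq, with 8 start sites. In windows of 250 bases before to 50 after the start, Lgals9 was the member with ISRE matches, and it had 2, at -55 (chr11:78984970-78984979) and at 16 (chr11:78984900-78984909) from the start. The second, with 8 bases on either side, reads as follows.
Lgals9 at 16: agctgtggTTTCTGTTTCctagctca
An ISRE match was present in 3.44% of 32851 promoter windows. The windows of the members held no match to the interferon-gamma activated site TTCNNNGAA (8.3% of windows), AP-1 TGANTCA (7.81%), the cAMP response element TGACGTCA (1.79%) or the kappaB motif (4.51%), and the ISRE matches overlapped none of these. A match describes letters in the window and no more.

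Cd47, which signals to phagocytes through SIRPα, stood at 107 CPM (104 to 110) in AT2 cells of the tumor library and 108 CPM (106 to 111) in those of the control library. The fold of 0.989 had an interval of 0.957 to 1.02. Thinned shares were 19.0% (18.1 to 19.9) and 19.4% (18.6 to 20.2), and empty droplets held 116 and 119 CPM. AT2 and club-like cells had the lowest Cd47 levels, the latter at 63.7 CPM (57.2 to 70.8) and 68.8 CPM (52.7 to 88.2). These were also the classes with the fewest genes of at least 20 CPM, 4036 and 2485. The part of this in the order of levels was not tested.

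Endothelial-like cells had the highest Cd47 level, 806 CPM (763 to 851) and 907 CPM (765 to 1067), with a fold of 0.889 (0.748 to 1.06). AT1-like cells had 318.5 CPM (289 to 350.1) and 276 CPM (255 to 299). Their fold of 1.15 (1.02 to 1.31) left out 1 and did not reach 1.2. Ciliated-like cells had 309 CPM (277 to 342) and 301 CPM (272 to 333), and basal-like cells 277 CPM (198 to 375) and 229 CPM (173 to 298). The intervals of these 3 classes overlapped within each library. After thinning, 73.5% (69.4 to 77.4) and 77.8% (64.4 to 88.0) of endothelial-like cells had a Cd47 UMI, against 13.3% (9.34 to 18.2) and 19.4% (10.8 to 30.9) of club-like cells.

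Cd274, which encodes PD-L1, was close to undetected. AT2 cells had 4 UMIs in the tumor library and 8 in the control library, or 0.0636 CPM (0.0173 to 0.163) and 0.110 CPM (0.0476 to 0.217), with intervals that overlap. The UMIs lay in 4 of 6729 and 8 of 10008 cells, each with 1. Ciliated-like cells had 1 and 5 UMIs, AT1-like cells 1 and 1, and endothelial-like cells 8 and 1, at 4.91 CPM (2.12 to 9.67) and 6.30 CPM (0.159 to 35.1). Club-like and basal-like cells had 0 UMIs in either library. The upper limits of the exact intervals were 0.675 and 4.09 CPM in club-like and 24.9 and 15.4 CPM in basal-like cells. No fold is given for this gene, and a difference was not detectable at this depth. On the genome, Cd274 and Il33 lie on the same strand of chromosome 19, with 537 kb between them, and their levels across classes had different orders.

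**Figure D4:**
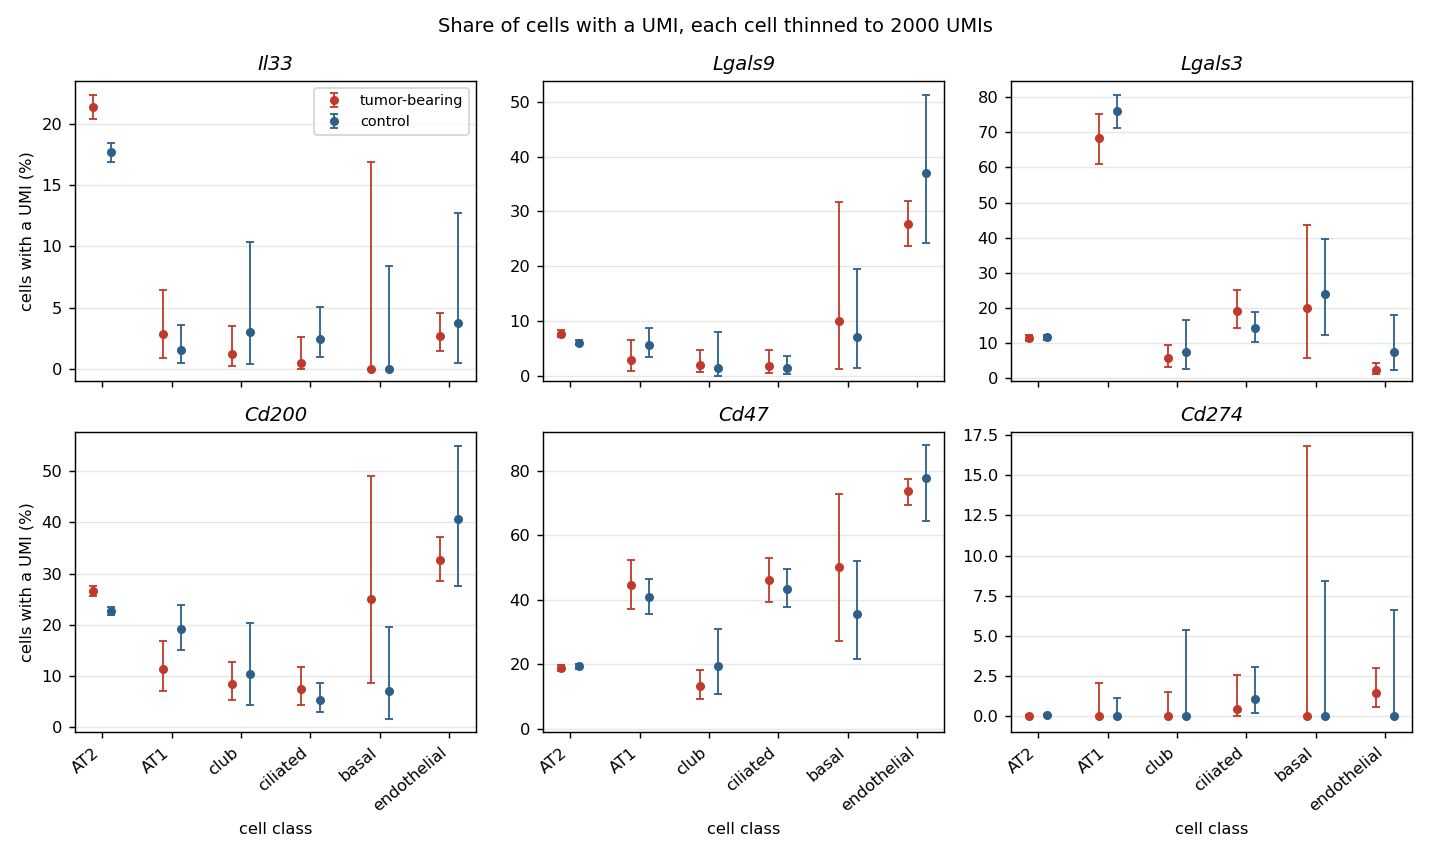
Share of cells with a UMI of each gene (percent, a scale of its own per panel) after each cell was thinned to 2000 UMIs, by class, for the tumor-bearing (red) and control (blue) library, with exact 95% binomial intervals. The AT2 points for Il33, Lgals9 and Cd200 are apart between libraries, those for Lgals3 and Cd47 overlap, and Cd274 stays at or near 0 throughout.

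Counted together, 61.8% of thinned AT2 cells of the tumor library and 57.2% of those of the control library had a UMI of at least 1 of the 6 genes, and 3.58% and 2.68% of at least 3. AT1-like cells had 85.9% and 91.6% with at least 1, and club-like cells 26.6% and 34.3%. Club-like cells thus held the fewest of these transcripts per 2000 UMIs in both libraries. They also had the most UMIs per cell, with medians of 23171 and 12261. Without thinning, 58.5% and 38.8% of them had a Cd200 UMI, against 12.6% and 12.4% of ciliated-like cells. For Cd47 the unthinned shares were 67.3% and 61.2%, against 74.9% and 71.4%. The part of UMIs per cell in this order was not tested.

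AT2 cells were not of 1 kind, and 8 clusters held at least 100 AT2 cells from each library, together 5432 and 5705 cells. The clusters were built from the genes of these same cells, so levels between clusters are a description. The cluster led by Acta2, Tagln and Ccl21a carried mural cell markers beside those of AT2 cells and had no class name. Lgals9 was above 1-fold in 8 of 8 clusters (1.30 to 1.88), with the interval above 1 in 6. Cd200 was too (1.06 to 1.40), also with 6 intervals above 1. Il33 was above 1 in 7 of 8, with 7 intervals above 1, from 0.917 in the cluster led by Mhrt, Lars2 and mt-Nd1 to 2.17 in the cluster led by Cxcl1, Areg and Gm12840. In the latter Il33 stood at 125 CPM in the tumor library and 57.6 CPM in the control library.

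Lgals3 and Cd47 behaved otherwise. Cd47 had a fold of 0.874 to 1.09 with no interval that left out 1 in any of the 8 clusters. Lgals3 was above 1 in 7 of 8 clusters (0.990 to 1.65), with 3 intervals above 1, although over the cells of these clusters together it stood at 72.3 and 89.7 CPM, a fold of 0.806 (0.769 to 0.845). The clusters differed widely in Lgals3, from 33.6 to 214 CPM in the tumor library and from 30.4 to 185 CPM in the control library. The highest, led by Gsta1, Areg and Fxyd2, held 584 of the 5432 cells and 1134 of the 5705, and the lowest, led by Lyz1, Bex2 and Acoxl, 1892 and 311. The other AT2 cells, 1297 and 4303, lay in smaller clusters or were left out of clustering as doublets or by the filters. Their mix differed between libraries. Clusters led by Nrn1, Gkn3 and Cst8 and by Nrn1, Itih4 and Apoc1 held 102 and 91 cells in the tumor library. In the control library they held 1487 and 1335. The cluster led by Retnla, Lrg1 and Itih4, with Il33 among its leading genes, held 319 and 61. Folds over the other AT2 cells thus compare unlike mixes. Their Lgals3 level was 62.4 and 47.6 CPM, a fold of 1.31 (1.21 to 1.43). For Cd47 the fold was 0.927 (0.890 to 0.965) over the 8 clusters together and 1.19 (1.12 to 1.26) over the other AT2 cells. Il33 was 1.44-fold (1.38 to 1.5) over the 8 clusters together. Over the other AT2 cells it was 1.12-fold (1.06 to 1.18), under the 1.2 limit. Cd200 was 1.27-fold (1.23 to 1.32) and 1.18-fold (1.12 to 1.25), the latter also under that limit. Lgals9 was 1.38-fold (1.29 to 1.48) and 1.42-fold (1.28 to 1.57).

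**Figure D5:**
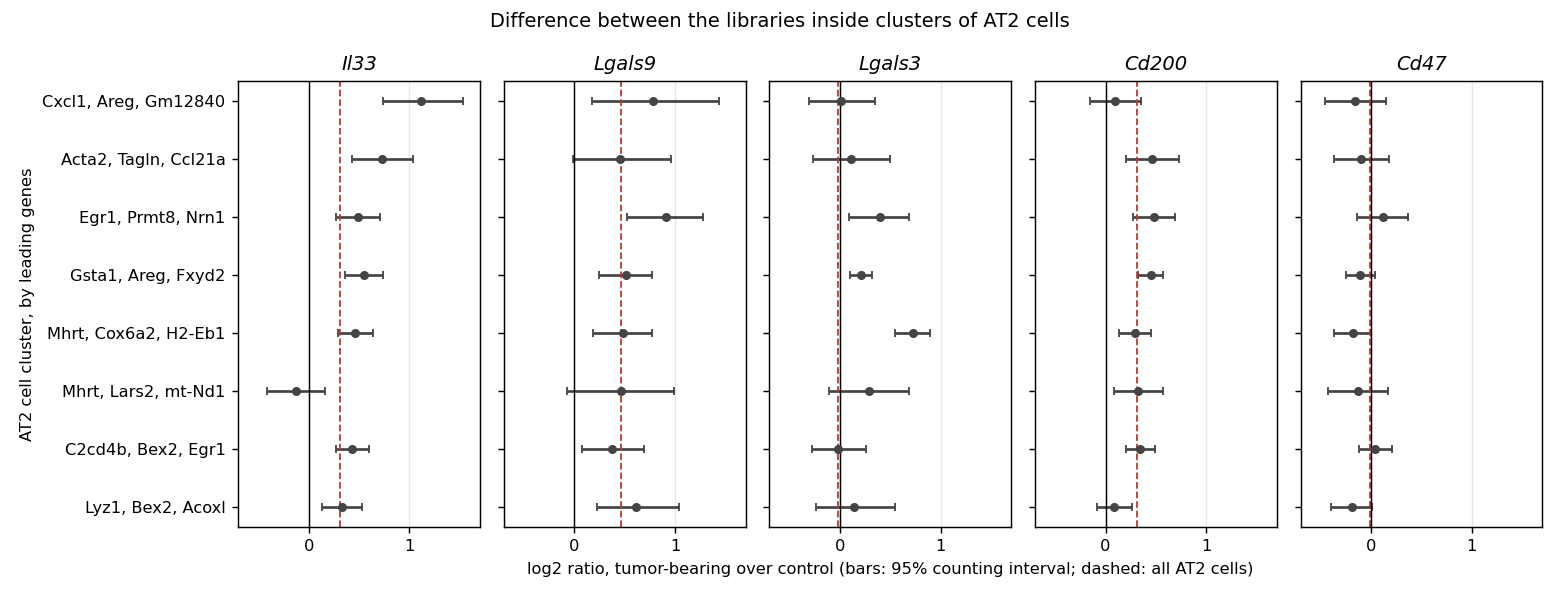
Log2 ratio of tumor-bearing over control of 5 genes within each of 8 clusters of AT2 cells, named by 3 leading genes, with 95% counting intervals as bars, a solid line at 0 and a dashed red line at the ratio over all AT2 cells. All 8 points of Lgals9 and Cd200 lie above 0, those of Lgals3 lie mostly to the right of its dashed line, and those of Cd47 stay around 0.

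Markers of other cell types were present among AT2 cells and differed between libraries. Summed over 10 club markers the level was 16015 and 12890 CPM, with 8 and 5 of 10 at 20 CPM or more, and in empty droplets 126417 and 23913 CPM. The 11 endothelial markers summed to 169 and 40.7 CPM, the 9 fibroblast markers to 140 and 83.5 CPM (Lum at 0 in the tumor library) and the 7 neutrophil markers to 30.4 and 0.855 CPM, with Mmp9 at 0 in the former and S100a8 and S100a9 at 0 in the latter. The 6 red cell markers went the other way, at 52.0 and 235 CPM, with 1 and 3 of them at 20 CPM or more. Club-like and ciliated-like cells had lower Il33, Lgals9 and Cd200 levels than AT2 cells in both libraries, whereas endothelial-like cells had higher Lgals9, Cd200 and Cd47 levels. The part of these markers in the AT2 differences was not tested. The 11 macrophage markers summed to 9.54 and 8.54 CPM, with Marco and C1qb at 0 in the tumor library and Marco, Adgre1 and C1qc at 0 in the control library, and of the 7 dendritic cell markers 6 were at 0 in both.

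The genes around each ligand were taken from lists of receptors, relatives and regulators. Of the 77 other list genes with a row, 26 reached 20 CPM in AT2 cells, 4 were called higher, 4 lower and 18 neither, with a median log2 ratio of -0.077. Each direction thus took 15.4% of the 26, next to 6.54% of all 4036 genes called higher and 7.23% lower. A further 7 had no UMI in AT2 cells of either library.

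Beside Il33, the alarmin list had Hmgb1, a nuclear protein released on damage, at 460 and 427 CPM (1.08-fold, no call), and Tslp, Il25, Il1a and Il18 stayed below 20 CPM. S100a8 and S100a9, alarmins abundant in neutrophils, were below 20 CPM as well, at 16.4 and 11.9 CPM in AT2 cells of the tumor library (1033 and 750 UMIs) and at 0 in those of the control library. Empty droplets held them at 487 and 350.0 CPM in the tumor library and at 0.862 and 0 CPM in the control library, and the part of free RNA in this difference was not tested. Il1rl1, the IL-33 receptor, was below 20 CPM in AT2 cells as well. Of the genes that carry its signal, Irak1, a kinase, was called lower at 26.6 and 32.1 CPM (0.828-fold), and the adaptor Myd88 was 21.1 and 23.5 CPM (0.900-fold, no call). Among the 9 galectin genes, Lgals3 and Lgals9 were the 2 that reached 20 CPM in AT2 cells. Of 6 galectin receptors, Cd44, an adhesion receptor, was called lower at 25.8 and 35.0 CPM (0.736-fold), P4hb and Itgb1 were 0.858-fold and 1.12-fold without a call, and Havcr2 had no UMI.

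Of the 8 B7 family genes with a row, Cd274 among them, none reached 20 CPM in AT2 cells, so Cd274 was not alone in its low level. Of 10 genes with a row that act on PD-L1 expression or turnover, 7 reached 20 CPM, 2 were called higher and 0 lower, against the 6.54% and 7.23% of all genes. These were Irf1, at 34.7 and 28.6 CPM (1.21-fold), and Irf2, at 48.2 and 39.7 CPM (1.21-fold), both transcription factors of the interferon response. Stub1, a ubiquitin ligase, was 107 and 116 CPM (0.922-fold, no call). Of the other checkpoint ligands, Nectin1 and Nectin3, adhesion molecules, were 0.853-fold and 0.856-fold without a call.

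Cd47 shared its list with 2 genes that were called lower, B2m and Cd24a. B2m, the light chain of MHC class I, was 429 and 737 CPM (0.582-fold, 0.573 to 0.590), and Cd24a, a ligand of Siglec receptors, was 108 and 146 CPM (0.742-fold, 0.719 to 0.765). Both thus stood lower in the tumor library while Cd47 itself hardly differed. Thbs1, a secreted ligand of CD47, was called higher at 26.9 and 20.7 CPM (1.30-fold), and Mfge8, a bridging protein for the uptake of dying cells, at 24.5 and 19.99 CPM (1.23-fold). Calr and Anxa1, exposed on dying cells, were 0.923-fold and 1.14-fold without a call. Sirpa, Cd200r1 and Pdcd1, the receptors of CD47, CD200 and PD-L1, were all below 20 CPM in AT2 cells. Tgfb1 and Csf2, secreted cytokines, were 1.11-fold and 0.950-fold without a call.

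Likeness of pattern was read as the Pearson correlation of log2(CPM + 10) over 12 profiles, the 6 classes in 2 libraries, among 9222 genes of at least 20 CPM in any profile. The profiles share libraries and free RNA, so these values describe and carry no test. Il33 was most like Fabp5 (0.980), Adam19 (0.966) and Lrp2 (0.963), all highest in AT2 cells, with Fabp5, a fatty acid binding protein, at 883 and 860 CPM there and at most 141.5 CPM elsewhere. Lgals9 was most like Ptprg (0.972), Cflar (0.967) and Ablim1 (0.964), which peaked in endothelial-like cells. Lgals3 was most like Eps8l2 (0.971), Arl4c (0.967) and Gpc4 (0.966), highest in AT1-like cells. Cd200 was most like Xdh (0.950), Trim2 (0.949) and Rgs10 (0.940), and Cd47 was most like the interferon-gamma receptor gene Ifngr1 (0.992), Itm2b (0.990) and Nrbp1 (0.990). For Cd274, whose profile spanned 0.70 on that log2 scale, the closest were Neurl3 (0.979), Sipa1l2 (0.976) and Cep170 (0.969). These rest on at most 8 Cd274 UMIs a profile, and the highest level, 6.30 CPM in control endothelial-like cells, was 1 UMI.

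On build mm10 with GENCODE vM21, all 6 are protein-coding genes. Il33 lies on chromosome 19 at 29925114 to 29960718 (plus strand), Cd274 on chromosome 19 at 29367455 to 29388095 (plus), Lgals9 on chromosome 11 at 78962974 to 78984946 (minus) and Lgals3 on chromosome 14 at 47367751 to 47386160 (plus). Cd200, at 45382135 to 45409053 (minus), and Cd47, at 49800533 to 49915010 (plus), are both on chromosome 16. No other annotated gene overlaps any of them on the same strand.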

How the data were processed

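Per the labels and the series design, CD45- SftpC+ lung cells were sorted, made into 10x libraries and processed with Cell Ranger 2.1.0. The submitters' processing notes also name mm10, R 3.5.3 and Seurat, with no role. The deposited values are raw UMI counts of each gene in each barcode, made by the authors with no normalisation, with 737280 barcodes a library, and the read end was not given in the sources used here. AT2 cells were taken by the Sftpc rule with no further filter. For the other classes, the 8193 and 11007 barcodes of at least 2000 UMIs were filtered (at least 500 genes, at most 20% mitochondrial UMIs), which left 8165 and 10987. Scrublet's own threshold marked 0 and 1 doublets, so the highest scores were removed at 0.8% per 1000 cells (533 and 966). Both libraries were clustered together (scanpy 1.11.5, 2000 variable genes, 30 components, 15 neighbours, Leiden resolution 1.0, since 0.5 gave no basal-like cluster). Clusters took the marker list with the highest mean log2 fold. Outside AT2-like clusters a minimum of 1 and the rule that clusters with raised AT2 markers stay unnamed were set after the data were seen. Cells meeting the AT2 rule were left out of other classes. The classes were rebuilt here from the counts. AT2 cells shared 94 barcodes between libraries, with 91.3 expected by chance.

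CPM are summed counts scaled to a total of 1000000. Intervals are Poisson (CPM), Clopper-Pearson (shares) and conditional binomial (folds) at 95%, from scipy 1.17.1. Of these, the fold intervals were run on simulated Poisson counts. Those counts had no spread between cells, so the run cannot show how the intervals do with uneven cells. Clusters of AT2 cells needed 100 cells per library. Named genes were the 6 members, up to 3 genes per list with the largest ratio among those of at least 20 CPM in AT2 cells, and the 3 genes most alike to each member. Genes of lists below 20 CPM are also named. Nectin1, Nectin2 and Nectin3 were matched by gene ID, and Hhla2 and Csn5 had no row. Members, lists and limits were chosen with earlier results of these data known.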

Additional observations from a re-analysis of the deposited data

Results flagged for a closer look

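Lgals3 pointed in opposite directions between cell classes under the same comparison. Its fold of the tumor-bearing over the control library was 1.49 in ciliated-like cells and 2.14 in basal-like cells, and 0.719 in AT1-like cells and 0.341 in endothelial-like cells, each with a counting interval that left out 1. With 1 library per group, the difference between classes was not tested. The basal-like and endothelial-like values rest on 49 and 37 UMIs and on 35 and 10 UMIs.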

How the results depend on the processing

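No paired analysis was possible because each group had 1 library. Il33, Lgals9 and Cd200 stayed above 0 on the log2 scale in AT2 cells under all 13 alternatives run, at 0.31 to 0.48, 0.31 to 0.58 and 0.31 to 0.36. Lgals3 ran from -0.066 to 0.60, with 6 of 13 below 0, and Cd47 from -0.10 to 0.14, with 9 of 13 below 0, so the sign of neither held across them. With AT2 clusters weighted equally, Il33 became 0.48, Lgals9 0.58, Lgals3 0.26 and Cd47 -0.089. Subtraction by club markers, which counts every club marker UMI in AT2 cells as free RNA, put free RNA at 12.7% and 53.9% of AT2 UMIs. Under it Lgals9 became 0.31, Lgals3 0.60, Cd200 0.36 and Cd47 0.14, and 4 members were called in place of 3. With Scgb1a1 alone, added after seeing the data, the shares were 5.53% and 17.9% and Lgals3 became 0.068. With the median log2 ratio of all genes (-0.043) set to 0, Cd200 became 0.36. In AT2-like clusters in place of the Sftpc rule, Cd47 became -0.10. Cd274, on 4 and 8 UMIs, had no value after subtraction by club markers and its other values carry no call. Without the 20 CPM minimum, 3295 genes were called in AT2 cells in place of 556. Without thinning, the share of AT2 cells with a UMI differed by 13.7 percentage points for Il33, 11.5 for Lgals9, 4.12 for Lgals3, 14.5 for Cd200 and 7.63 for Cd47. In the other classes 89 of 91 values stayed inside the counting interval of the main value, which is wide in small classes. Changes of sign were among them. With Sftpc-high cells kept, Cd200 went from -0.37 to 0.15 in ciliated-like and from -0.046 to 0.27 in AT1-like cells. Outside the interval were Lgals3 in AT1-like cells with Sftpc-high cells kept (-0.78) and Cd47 in club-like cells at resolution 0.5 (-0.56), the latter added after seeing the data. The cause of these shifts was not tested. Depth limits the basal-like and the control endothelial-like values most, at 148288, 239901 and 158861 UMIs.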
